A study of Mus musculus with 4 samples.

Results

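Ttr, Ptgds, Trf, Cst3, Apoe, Pltp and Apod encode secreted proteins that carry or bind small molecules, metals or other proteins, and their RNA was followed across the tissues of the posterior mouse eye. They were chosen by gene symbol. All 7 were found among the 32285 genes of the matrices, and together they held 26637 UMIs (unique molecular identifiers, 1 per captured RNA molecule), or 0.756% of all UMIs. The label "of the coat" under which they were gathered held for some of them only: Apod had 3 UMIs in all spots led by pigment epithelium markers, and Apoe and Apod had their highest mean level in spots led by myelin markers, for Apoe through 1 of 3 frames.

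The data are Visium spatial transcriptomics of fresh-frozen posterior eyes of C57BL/6J mice, in which RNA is captured from a tissue section under a grid of barcoded spots. There were 4 capture frames, all with the label naive plus AAV2/2, an adeno-associated viral vector, and all labelled retina. The study's design text names vectors for Wif1, a secreted Wnt inhibitor, and a control, with times of 2 and 4 weeks, but the frames' labels do not say which sections received which vector, so no treatment is compared here. The labels number each frame as its own biological replicate but name no animal, so p-values measure the spread between frames. Frames 1 to 4 held 1201, 1243, 1056 and 1103 spots over tissue and 895894, 1066633, 885454 and 674029 UMIs. A barcode marks a position of the grid, and of 2458 distinct barcodes 1271 occurred in more than 1 frame.

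Transthyretin (Ttr) carries thyroid hormone and takes part in retinol transport. Ptgds, prostaglandin D2 synthase of the lipocalin type, both makes prostaglandin D2 and carries small lipophilic molecules, and Apod is a lipocalin too. Transferrin (Trf) carries iron, cystatin C (Cst3) inhibits cysteine proteases, apolipoprotein E (Apoe) carries lipid and binds receptors of the LDL receptor family, and Pltp transfers phospholipid between lipoproteins. The retinal pigment epithelium, which lies between photoreceptors and choroid, recycles visual pigment and exchanges nutrients with the blood, and myelinating oligodendrocytes and astrocytes fill the optic nerve behind the eye.

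Promoters from RefSeq (GRCm38.p6, the build named mm10 in the submitters' processing notes) were at hand for 5 of the 7 genes. They span 250 bases before to 50 after the start, and 3 are shown for the 3 patterns that the levels below take: a gene high in the coat (Ptgds), a gene found in every tissue (Cst3) and a gene highest in the nerve (Apod). All 3 lie on the minus strand, at chr2:25469700-25469999 for Ptgds, chr2:148875463-148875762 for Cst3 and chr16:31314759-31315058 for Apod. Capitals mark matches on either strand to GGGCGG, a GC box, and to ACAAAG, a core that SOX factors are known to bind. Also searched on both strands were the E-box letters CACGTG (found in 7.15% of all promoters of this length), the related form CATGTG (14.2%), the TATA box TATAAA (13.6%) and GGATTA (7.06%), a core that OTX factors are known to bind.
Ptgds: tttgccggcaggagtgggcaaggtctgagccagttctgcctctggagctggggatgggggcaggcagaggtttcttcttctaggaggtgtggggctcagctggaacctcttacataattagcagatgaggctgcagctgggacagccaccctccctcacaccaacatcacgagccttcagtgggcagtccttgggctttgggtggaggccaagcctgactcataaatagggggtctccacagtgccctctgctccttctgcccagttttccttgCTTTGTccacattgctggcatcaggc
Cst3: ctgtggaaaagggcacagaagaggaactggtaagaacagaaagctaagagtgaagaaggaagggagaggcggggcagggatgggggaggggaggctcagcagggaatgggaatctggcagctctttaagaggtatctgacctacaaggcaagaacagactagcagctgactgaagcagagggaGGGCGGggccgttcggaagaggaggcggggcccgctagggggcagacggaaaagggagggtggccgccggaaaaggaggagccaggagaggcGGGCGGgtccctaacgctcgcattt
Apod: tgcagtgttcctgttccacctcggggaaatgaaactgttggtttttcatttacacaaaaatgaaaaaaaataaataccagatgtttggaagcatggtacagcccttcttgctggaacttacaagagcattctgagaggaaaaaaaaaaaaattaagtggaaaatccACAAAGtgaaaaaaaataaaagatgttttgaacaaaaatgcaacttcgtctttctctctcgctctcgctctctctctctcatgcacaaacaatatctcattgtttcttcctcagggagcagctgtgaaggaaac

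The Cst3 promoter held the GC box at 2 places, and GGGCGG or its reverse complement occurred in 35.7% of 32851 RefSeq mouse promoters of this length. The SOX core was found once in Ptgds and once in Apod, against 18.7% of all such promoters. None of the other 4 motifs was found in these 3 windows, which says nothing of other sequence. A match is a string of letters and no measured binding.

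Over whole frames, Cst3 and Ptgds were the most abundant of the genes and Pltp and Apod the scarcest. CPM, counts scaled to a common library total, are taken here over all UMIs of the frame or spot group; they are not scaled to gene length, so levels of different genes are set side by side only as captured UMIs. Cst3 stood at 2479, 2874, 3597 and 2291 CPM in frames 1 to 4, and Ptgds at 1900, 2703, 3009 and 2889 CPM. The ranges of Cst3 and Ptgds overlapped and their order turned in frame 4, so these neighbours are not ranked. Ttr followed at 730, 1384, 1120 and 651 CPM and Apoe at 626, 691, 711 and 498 CPM. Frame 2 was highest and frame 4 lowest for Ttr, 2.12 times apart. The ranges of Ttr and Apoe also overlapped, though Ttr was above Apoe within every frame. Trf lay at 261, 456, 455 and 274 CPM, below every frame of Apoe. Pltp lay at 38.0, 47.8, 52.0 and 56.4 CPM and Apod at 36.8, 22.5, 32.8 and 56.4 CPM, and these last ranges overlapped.

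**Figure D1:**
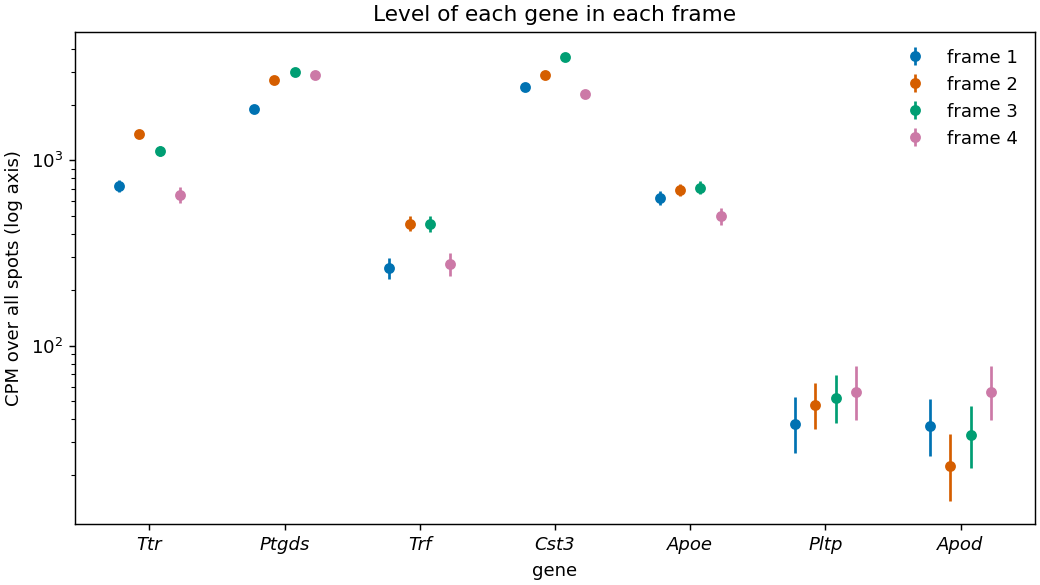
CPM of each gene in each of the 4 frames (log axis); bars are exact 95% Poisson intervals, which cover counting error only. Cst3 and Ptgds lie highest in every frame, and Ttr is lowest in frame 4 at 651 CPM.

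For Ttr, Trf and Apoe, few spots held most of the RNA. The 5% of spots with most UMIs of the gene held 59.7% of Ttr, 61.2% of Trf, 52.7% of Apoe and 46.2% of Ptgds UMIs, but 30.5% of Cst3 UMIs. This share also rises as a gene gets scarcer, and it was 100% for Pltp and Apod. It therefore does not by itself measure concentration in the tissue. Cst3 was detected in 57.8% of 4603 spots and Ptgds in 48.3%, against 25.3% for Ttr, 23.8% for Apoe and 15.6% for Trf. Pltp and Apod were detected in 3.35% and 2.41% of spots, with at most 2 and 3 UMIs in any spot.

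Spots were grouped by defining markers that exclude these 7 genes, and each group is named after its markers. There were 231 pigment epithelium spots (led by Rpe65, Lrat and 6 more), 215 melanosome spots, 108 fibrous spots (collagens and small proteoglycans), 95 optic nerve spots (myelin genes, none in frame 1) and 2412 neural spots, pooled from photoreceptor, inner nuclear and ganglion spots. Muscle, keratin and blood spots were few, and 1427 spots stayed unplaced. A spot is a small region that can hold several cell types, and fewer cells of a type cannot be told apart here from less RNA per cell. Of 3176 placed spots, 744 had a second marker list whose share was at least 0.5 of the first. Mixing was more common in the coat, with 108 of the 231 pigment epithelium and 45 of the 108 fibrous spots. Markers not used for grouping followed the names for pigment epithelium and optic nerve spots. The 8 other pigment epithelium markers, among them Enpp2 and Timp3, summed to 6434 ± 2282 CPM in pigment epithelium spots and 590 ± 132 CPM in neural spots (SD, n = 4). The 9 other myelin genes summed to 2651 ± 338 CPM in optic nerve spots (n = 3) and 43.2 ± 9.54 CPM in neural spots (n = 4). Other fibrous markers did not single out fibrous spots, which held 13.7% of their UMIs, against 13.6% in melanosome spots. Of all UMIs these groups held 2.76% and 3.58%. Fbln1 was higher in melanosome spots (808 against 257 CPM) and Bgn in fibrous spots (896 against 230 CPM).

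Ttr had its highest mean level in pigment epithelium spots. Its level there was 6599, 10329, 7974 and 3734 CPM in frames 1 to 4, against 443, 574, 655 and 468 CPM in neural spots, with no overlap. Fibrous spots held 3039, 4023, 1609 and 1950 CPM of Ttr, above neural spots and below pigment epithelium spots in every frame. Those with 0 UMIs of the pigment epithelium markers held 541 ± 534 CPM (SD, n = 3). All neural spots held 535 ± 97.9 CPM (n = 4), so the higher Ttr level was seen in fibrous spots that also held such UMIs. Melanosome spots held 23.7, 11.9 and 18.1% of the pigment epithelium level in frames 1 to 3. In frame 4, with 10 melanosome spots, they held 128% of it, at 4793 CPM. In optic nerve spots Ttr was all but undetected, with 1 UMI in 95 spots. Over the 3 frames with both groups, the level in pigment epithelium spots was 344 times that in optic nerve spots, with a 95% counting interval of 61.6 to 13602. Neural spots of the same frames also exceeded optic nerve spots, 22.0 times (interval 3.94 to 871), and fibrous spots did so 93.7 times (16.6 to 3724).

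Ptgds was high in every part of the coat. It stood at 13737, 13977, 14731 and 15641 CPM in pigment epithelium spots, against 849, 1073, 1290 and 1330 CPM in neural spots. Melanosome spots, led by pigment cell genes such as Pmel and Mlana, held 12375, 10880, 11519 and 22469 CPM, a range that encloses that of pigment epithelium spots. Fibrous spots held 4360, 4981, 5054 and 10559 CPM. Optic nerve spots of frames 2 to 4 held 9650, 2065 and 9078 CPM, frame 3 standing far below the others but still above its neural spots. Summed markers of arachnoid and pia, membranes in which Ptgds is known to be made, were at 465 ± 324 CPM in melanosome spots and 414 ± 453 CPM in optic nerve spots, against 22.8 ± 11.6 CPM in neural spots (n = 4, 3 and 4), and Slc22a6 and Foxd1 of that list had 2 and 1 UMIs in all. In frame 4 that list was at 0 in melanosome spots (10 spots, 3338 UMIs) and in optic nerve spots (43 spots, 16523 UMIs), while Ptgds stood there at 22469 and 9078 CPM. In so few melanosome UMIs a list this scarce can be missed. The part of arachnoid and pia in the Ptgds level was not tested.

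Trf had its highest mean level in pigment epithelium spots, and its level in optic nerve spots varied widely between frames. Pigment epithelium spots held 2626, 2896, 2224 and 1715 CPM, against 151, 241, 290 and 172 CPM in neural spots. Melanosome spots were far lower than pigment epithelium spots, at 483, 259, 487 and 599 CPM. Fibrous spots held 1090, 1102, 515 and 404 CPM, and optic nerve spots 224, 1204 and 1937 CPM in frames 2 to 4. In frame 2 the optic nerve level was below the neural level on this scale. Optic nerve and fibrous spots overlapped, so the nerve is not set apart from the fibrous coat for Trf.

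Cst3 was abundant in every tissue. It stood at 6936, 8520, 10073 and 5853 CPM in pigment epithelium spots, 4228, 5077, 4700 and 3026 CPM in fibrous spots and 4040, 3384 and 2542 CPM in optic nerve spots of frames 2 to 4, against 2183, 2207, 2944 and 2181 CPM in neural spots. Pigment epithelium spots did not overlap any of these groups. The ranges of optic nerve and neural spots overlapped, though optic nerve spots were higher within each of frames 2 to 4. Neural spots held 56.9% of all Cst3 UMIs, while they held 67.9% of the UMIs of all genes.

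Apoe had another order. Pigment epithelium spots held 1818, 1336, 1154 and 1312 CPM, fibrous spots 1685, 1724, 1738 and 1816 CPM, melanosome spots 2242, 2284, 2282 and 1797 CPM and optic nerve spots 4937, 1950 and 1816 CPM in frames 2 to 4, against 362, 409, 342 and 304 CPM in neural spots. Pigment epithelium and fibrous spots overlapped. Within the retina the mean of Apoe was highest in inner nuclear spots, at 743 ± 226 CPM, against 324 ± 44.2 CPM in photoreceptor and 238 ± 61.3 CPM in ganglion spots (SD, n = 4). Markers of Müller glia were also highest in inner nuclear spots, at 2511 ± 908 CPM. Between photoreceptor spots, at 579 ± 73.1 CPM, and ganglion spots, at 788 ± 106 CPM, their means had the opposite order to Apoe. The part of Müller glia in the Apoe level was not tested. Microglia and macrophage markers, cells known to make Apoe, summed to 237 ± 44.2 CPM in pigment epithelium, 657 ± 356 CPM in fibrous and 716 ± 61.7 CPM in optic nerve spots, against 163 ± 26.2 CPM in neural spots. Their part in the Apoe level was not tested.

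Pltp and Apod were scarce and went separate ways. Pltp had 32 UMIs in pigment epithelium spots, at 404, 181, 210 and 303 CPM, against 24.9, 33.1, 30.0 and 43.1 CPM in neural spots. Apod had 27 UMIs in optic nerve spots, at 673, 459 and 968 CPM in frames 2 to 4, and 14 UMIs in fibrous spots, at 99.1, 192, 96.6 and 269 CPM, against 29.9, 5.51, 18.3 and 17.2 CPM in neural spots. Pigment epithelium spots held 3 Apod UMIs, all in frame 2. Over frames 2 to 4, Apod was 30.3 times as high in optic nerve as in pigment epithelium spots, with a counting interval of 9.33 to 156. Astrocyte markers, chiefly Gfap, summed to 9038 ± 3234 CPM in optic nerve spots (n = 3) and 169 ± 33.2 CPM in neural spots (n = 4), and their part in the Apod level was not tested.

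**Figure D2:**
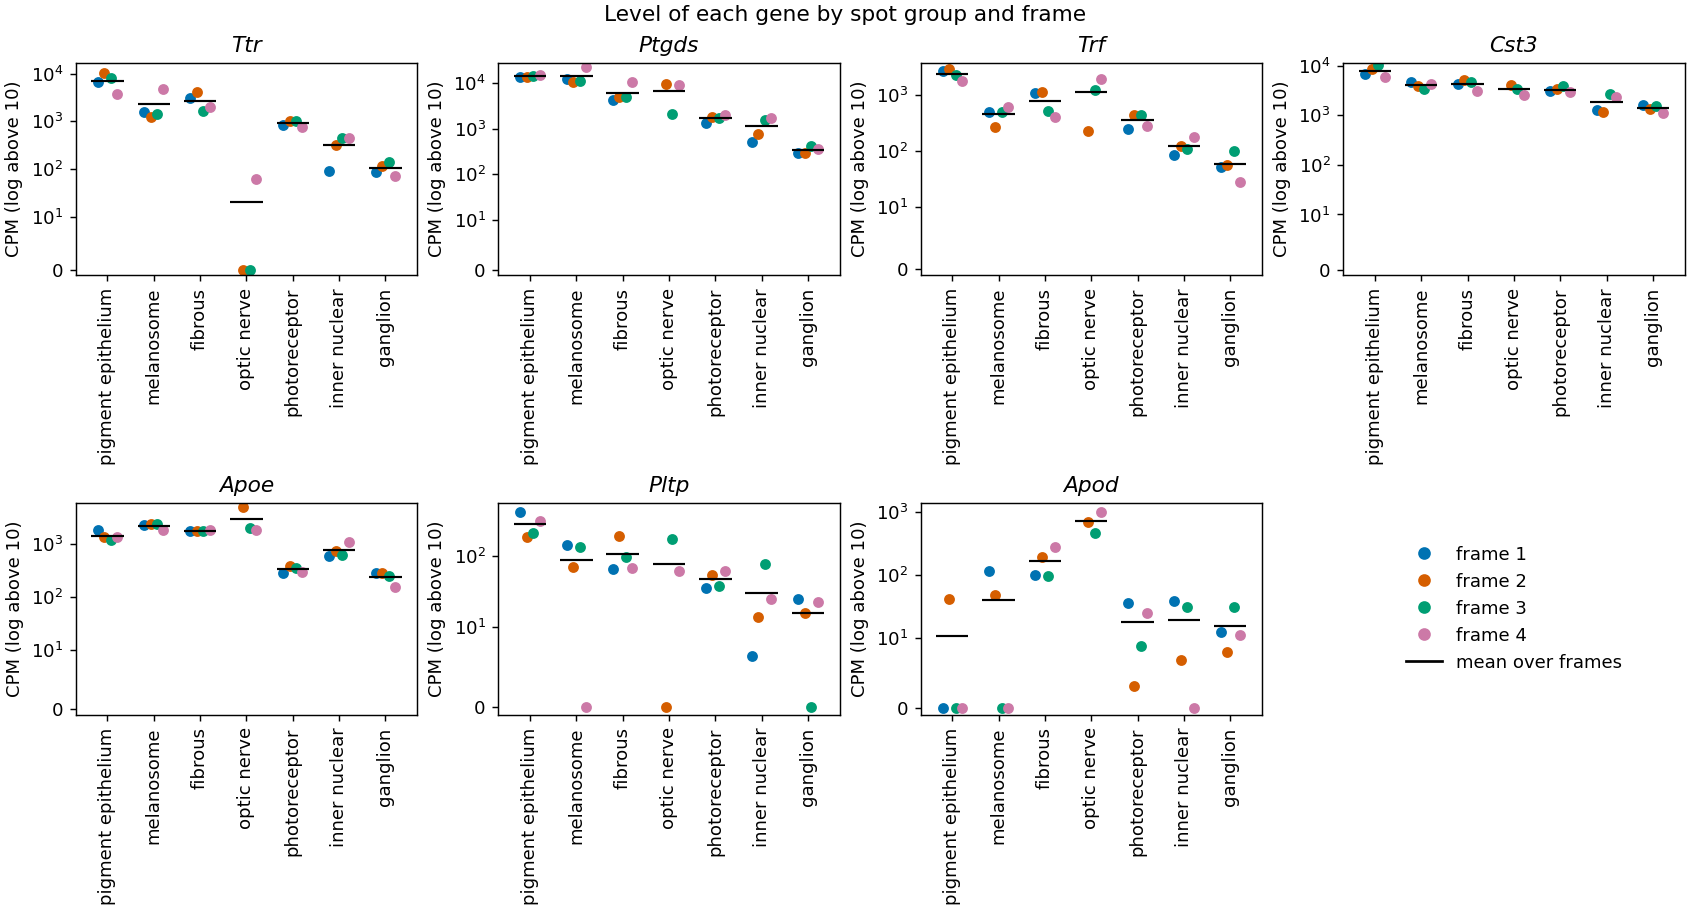
CPM of each gene (log axis above 10, linear below) in 7 spot groups, 1 point per frame and a line at the mean. Ttr is near 0 in optic nerve spots, where Apod is highest at a mean of 700 CPM.

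These levels were tested with edgeR's quasi-likelihood test on UMIs summed per frame and group, in 1 fit over all spot groups with the frame as a block, and a gene passed at a Benjamini-Hochberg adjusted p under 0.05. Of all genes, 426 had counts enough for this fit, among them Ttr, Ptgds, Trf, Cst3 and Apoe but neither Pltp nor Apod. At their neural levels Ttr, Trf and Apoe would not have passed the filter on low counts. They entered through spot groups where they are higher, so their folds against neural spots are a description. The same can hold for other genes named below. Log2 folds below are fitted, and the value after ± is the SD between frames of the fold computed in each.

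In pigment epithelium against neural spots, 5 of the 5 genes tested rose, where 10.3% of the 426 genes did so, 9.15% were lower and 19.5% passed in either direction. Ttr rose by a log2 fold of 3.55 ± 0.51 (edgeR adjusted p = 1.35e-09), Ptgds by 3.52 ± 0.23 (2.03e-09) and Trf by 3.32 ± 0.47 (2.72e-08). Apoe rose by 1.77 ± 0.29 (3.61e-05) and Cst3 by 1.53 ± 0.22 (1.93e-05). Each was higher in 4 of 4 frames. The median of the 5 was 3.32, against -0.18 for all genes tested. Since Ttr, Trf and Apoe entered the fit through groups where they are high, neither this median nor the count of 5 is support.

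In fibrous against neural spots the same 5 passed, all higher in 4 of 4 frames, where 13.8% of genes were higher, 6.81% lower and 20.7% passed. Fibrous spots that also held UMIs of the pigment epithelium markers were included. Ptgds rose by 2.32 ± 0.43 (edgeR adjusted p = 5.55e-06), Apoe by 2.22 ± 0.20 (7.6e-07), Ttr by 2.19 ± 0.71 (1.93e-05) and Trf by 1.79 ± 0.89 (0.00267). Cst3 rose by 0.75 ± 0.32 (0.0429), a call that was lost without frame 1, 2 or 3, with adjusted p of 0.103, 0.232 and 0.157.

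In optic nerve against neural spots, over 3 frames, Apoe rose by 3.05 ± 0.52 (edgeR adjusted p = 4.92e-09), Trf by 2.96 ± 1.82 (9.71e-06) and Ptgds by 2.63 ± 1.27 (1.46e-06), all in 3 of 3 frames. Folds per frame leave out defining genes and add a prior count of 2. On CPM of all UMIs, Trf in frame 2 was below its neural level, in optic nerve spots of 4456 UMIs. Its direction in that frame is therefore uncertain. Ttr fell (0.00512), with its 1 UMI leaving the size to the counting interval above. Cst3 had a log2 fold of 0.66 ± 0.29 and did not pass (0.0987). Of all genes tested 36.6% passed, 19.0% higher and 17.6% lower.

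Between the coat layers, Trf, Ttr and Ptgds were higher in pigment epithelium than in fibrous spots, in 4 of 4 frames each. Their log2 folds were 1.53 ± 0.43 (edgeR adjusted p = 0.0171), 1.36 ± 0.61 (0.011) and 1.2 ± 0.50 (0.0204), where 3.76% of genes were higher, 4.93% lower and 8.69% passed. With library sizes alone as the scaling, 12 genes were higher and 36 lower, against 16 and 21 here, and the median of all genes lay at -0.18 instead of -0.04. The Ptgds call was lost without frame 1 or 2 (0.131 and 0.144), the Ttr call without frame 2 or 3 (0.0738 and 0.0962) and the Trf call without frame 3 (0.101). Cst3, at 0.79 ± 0.18, did not pass (0.059), though it did so without frame 4 (0.0212). Apoe, at -0.45 ± 0.30, did not pass (0.507).

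In pigment epithelium against optic nerve spots Ttr rose (edgeR adjusted p = 8.54e-09), Cst3 rose by 0.88 ± 0.20 (0.0331) and Apoe fell, with a log2 fold of -1.28 ± 0.66 (0.00697), each in 3 of 3 frames, where 30.8% of genes passed, 14.1% higher and 16.7% lower. Cst3 was lost without frame 2 or 3 (0.0544 and 0.0887) and Apoe without frame 2, 3 or 4 (0.267, 0.123 and 0.158). Ptgds at 0.89 ± 1.2 (0.0921) and Trf at 0.36 ± 2.03 (0.616) did not pass, and both did so without frame 4 (4.87e-05 and 0.0311). In optic nerve against fibrous spots Ttr fell (4.89e-06) and the other 4 did not pass, with 25.6% of genes passing, 13.6% lower. Trf passed there without frame 2 (0.0434).

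**Figure D3:**
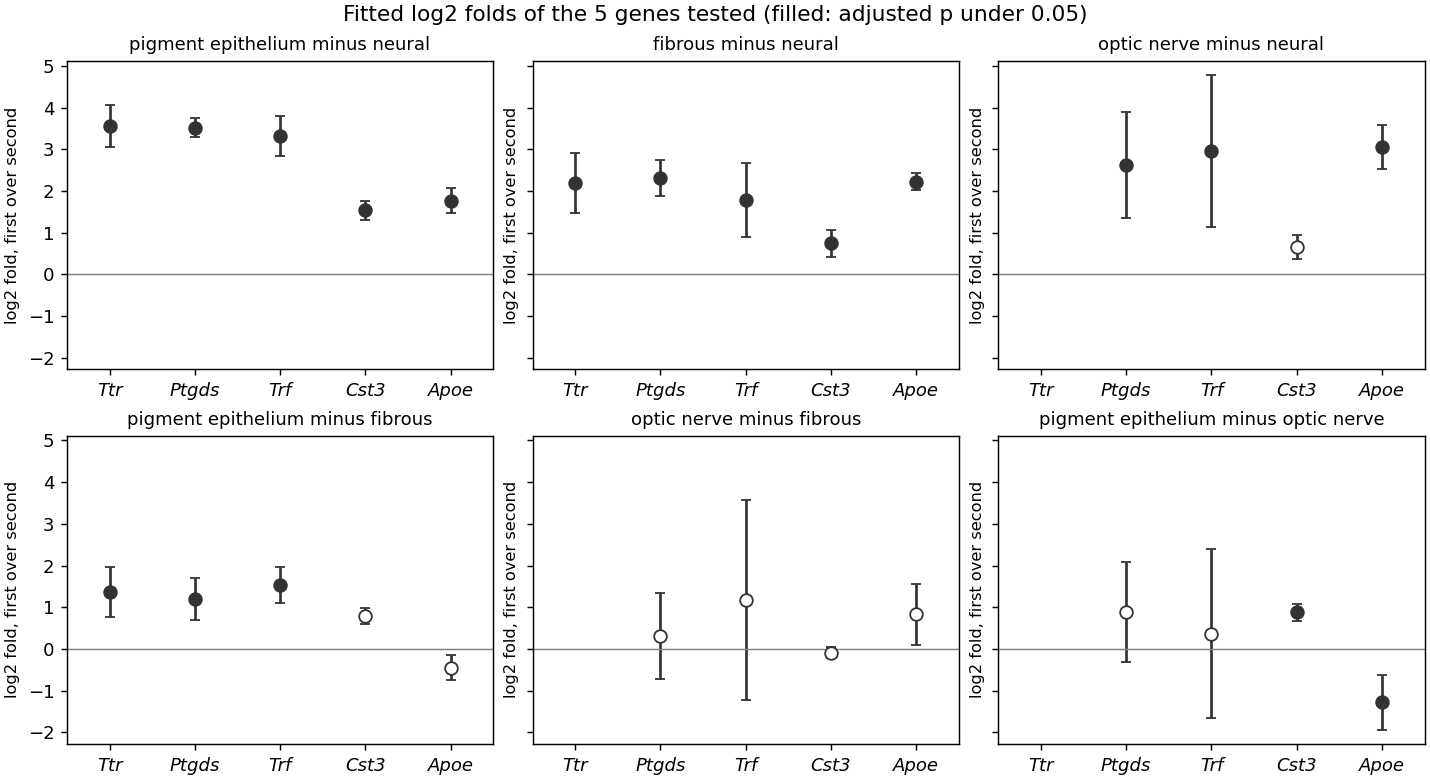
Fitted log2 folds of the 5 genes tested in 6 comparisons, with the SD of the frames' log2 folds as bars and filled points for adjusted p under 0.05. Ttr is left out where optic nerve spots enter, since they held 1 UMI; Apoe is the gene below 0 in pigment epithelium minus optic nerve.

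Pltp and Apod could be tested only by fitting the 2 groups of a comparison alone, which keeps more genes. This fit was added after the results of the designed one had been seen, and its values carry less weight. A scarce gene can pass its filter on low counts only through the group where it is high, and then had to differ, so the values for Pltp and Apod are a description and support nothing. By it Pltp had a log2 fold of 2.93 in pigment epithelium against neural spots (edgeR adjusted p = 3.04e-05), 1.54 in fibrous (0.137) and 1.26 in optic nerve spots (0.429), with 3634, 3605 and 3281 genes tested. Apod had 5.26 in optic nerve (1.66e-07) and 2.89 in fibrous against neural spots (2.06e-05). For the other 5 genes this fit also passed Cst3 in pigment epithelium against fibrous (0.0467) and Ptgds in pigment epithelium against optic nerve spots (0.000378), calls that the designed fit did not make.

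Few genes of the same pathways had counts enough to be tested, and those that passed went both ways. Among retinoid and thyroid hormone carriers, 3 of 16 were tested: in pigment epithelium against neural spots Rlbp1, the retinaldehyde-binding protein, rose by 2.93 ± 0.39 (edgeR adjusted p = 6.62e-06), while Rbp3, the interphotoreceptor retinoid-binding protein, fell (-0.90 ± 0.39, 0.028). Among iron genes, 3 of 16 were tested, and ferritin light chain Ftl1 rose by 1.28 ± 0.58 (0.0436) there while Lcn2, a lipocalin that binds iron carriers of bacteria, fell (-2.33 ± 1.05, 0.0362). Ferritin heavy chain Fth1 (ferritin genes have near-identical pseudogene copies, so their counts are uncertain) rose by 3.40 ± 0.13 (2.03e-11) in optic nerve and by 0.96 ± 0.36 (0.0169) in fibrous against neural spots. Of 24 lipoprotein genes and receptors 1 was tested, clusterin (Clu), which rose by 1.99 ± 0.38 (1.43e-07) in pigment epithelium, 1.31 ± 0.52 (0.000302) in fibrous and 0.94 ± 0.35 (0.0107) in optic nerve against neural spots. Of 15 cystatins and proteases 2 were tested, and cathepsin D (Ctsd) rose by 1.75 ± 0.41 (0.00014) in pigment epithelium and 2.12 ± 0.41 (6.4e-06) in fibrous spots. Of 18 abundant secreted proteins 10 were tested: 5 rose and 0 fell in pigment epithelium, 10 rose in fibrous and 4 rose in optic nerve spots, all against neural spots, where 10.3%, 13.8% and 19.0% of all genes tested were higher. Timp3, an inhibitor of matrix metalloproteinases, rose by 3.09 ± 0.24 (1.35e-10) and Enpp2, the secreted lysophospholipase autotaxin, by 3.77 ± 0.60 (9.22e-07) in pigment epithelium spots. Sparc, a collagen-binding matrix protein, rose by 2.85 ± 0.76 (1.65e-09) in fibrous and 2.99 ± 0.71 (4.92e-09) in optic nerve spots. In fibrous spots Rlbp1 rose by 1.65 ± 0.34 (0.0204), while Rbp3 fell (-1.02 ± 0.42, 0.014). Of 13 prostaglandin D and lipocalin genes 2 were tested, and Lcn2 passed in pigment epithelium spots, as given above, while neither passed in fibrous or optic nerve spots.

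Inside the retina 5 of the 6 genes tested were higher in photoreceptor spots, the layer next to the pigment epithelium, than in inner retina spots (inner nuclear and ganglion pooled). Ttr stood at 906 ± 128 CPM in photoreceptor and 159 ± 56.2 CPM in inner retina spots, a log2 fold of 2.69 ± 0.44 (edgeR adjusted p = 2.59e-11). Trf rose by 2.34 ± 0.23 (3.76e-09), Ptgds by 1.82 ± 0.28 (2.43e-10), Pltp by 1.52 ± 0.31 (0.00348) and Cst3 by 1.32 ± 0.16 (2.19e-09), each in 4 of 4 frames. Pltp stood at 47.3 ± 12.6 CPM in photoreceptor and 18.2 ± 3.52 CPM in inner retina spots. It passed the filter on low counts only through the former, so its value is a description and supports nothing. Apoe did not pass, at 324 ± 44.2 CPM in photoreceptor and 380 ± 64.7 CPM in inner retina spots (-0.08 ± 0.28, 0.707), and Apod was not tested. In this fit of its own 4272 genes were tested and 53.1% passed, 24.9% higher and 28.3% lower. With library sizes alone 887 genes were higher and 1332 lower, against 1062 and 1208 here, and the median of all genes moved to -0.15. Of 5 other pigment epithelium markers tested, 4 were higher in photoreceptor spots too.

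The level beside the pigment epithelium was then set against the level within it, frame by frame. In photoreceptor spots Ttr stood at 13.9 ± 4.49% of its pigment epithelium level, Ptgds at 11.8 ± 1.37% and Trf at 15 ± 4.27%, and the 8 other pigment epithelium markers at 13.1 ± 4.91% (SD, n = 4). Cst3 at 42.7 ± 5.61% and Apoe at 24.0 ± 6.58% had higher means. The frames of Cst3 overlapped none of these, while those of Apoe, at 15.6 to 30.4%, lay above those of Ptgds but overlapped those of Ttr, Trf and the other markers. In inner retina spots the shares were 2.42 ± 1.07% for Ttr, 3.74 ± 0.83% for Ptgds and 3.25 ± 0.87% for Trf, against 6.27 ± 1.21% for the other markers, 19.1 ± 3.40% for Cst3 and 27.4 ± 4.25% for Apoe. On the outer side, fibrous spots kept 39.4 ± 13.9% of Ttr, 42.3 ± 16.9% of Ptgds and 31.6 ± 9.59% of Trf, against 40.8 ± 11.8% for the other markers, and held 128 ± 25.0% for Apoe. Spots mixed at a border and RNA that spread cannot be told apart here.

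**Figure D4:**
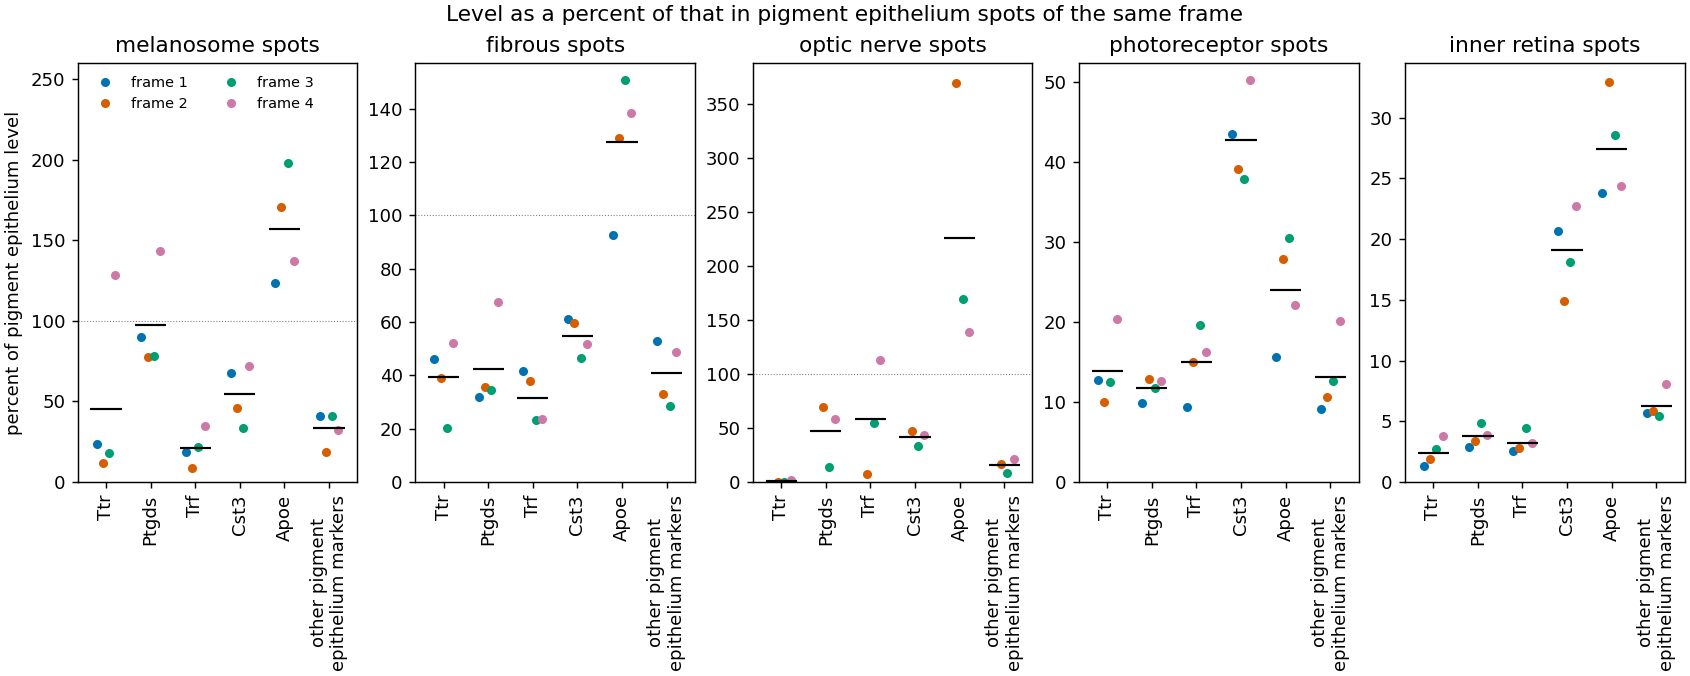
Level in 5 spot groups as a percent of that in pigment epithelium spots of the same frame (1 point per frame, line at the mean, dotted line at 100%; each panel has its own axis). In photoreceptor spots Ttr, Ptgds and Trf lie near the 13.1% of the other pigment epithelium markers, and Cst3 lies at 42.7%.

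Neural spots were also split by UMIs of the pigment epithelium defining list. Spots with 2 or more held 936, 2001, 1850 and 2180 CPM of Ttr in frames 1 to 4, against 333, 183, 305 and 278 CPM in spots with 0, with no overlap. All 6 genes tested were higher in spots with such UMIs, where 5.48% of 3647 genes were, 9.32% were lower and 14.8% passed. Pltp stood at 84.7 ± 22.2 CPM in spots with and 19.2 ± 8.60 CPM in spots without. It passed the filter on low counts only through the former, so its value is a description and supports nothing. The log2 folds were 2.61 ± 0.82 for Ttr (edgeR adjusted p = 5.61e-07), 2.24 ± 0.63 for Pltp (0.000935), 2.22 ± 0.49 for Trf (2.73e-07), 1.87 ± 0.72 for Ptgds (4.12e-06), 0.85 ± 0.39 for Cst3 (6.6e-05) and 0.80 ± 0.66 for Apoe (0.00737). The Apoe call was lost without frame 2 or 3 (0.111 and 0.0581), and under 5 of 15 alternatives in all. The split also changed the mix of layers: 94 photoreceptor spots held 2 and 129 held 3 or more such UMIs, and 33 and 17 inner retina spots did, whereas 869 photoreceptor and 914 inner retina spots held 0. Levels within photoreceptor spots alone are given next. The other pigment epithelium markers moved with them, at 1430 ± 593 CPM in spots with and 396 ± 33.8 CPM in spots without.

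Within photoreceptor spots the means of Ttr and Ptgds were higher with each further such UMI in the spot, a description with no test. Ttr stood at 510 ± 152, 792 ± 124, 1334 ± 108 and 2257 ± 1009 CPM in spots with 0, 1, 2 and 3 or more (SD, n = 4), and Ptgds at 1155 ± 295, 1797 ± 392, 2437 ± 646 and 3280 ± 1697 CPM. Cst3 stood at 2882 ± 431, 3159 ± 519, 4054 ± 493 and 3995 ± 1019 CPM, so the last 2 did not differ beyond their spread. The last 2 values of Ttr and all neighbouring values of Ptgds also overlapped within their SDs. Spots with more such UMIs were also deeper, with medians of 632, 797, 868 and 1264 UMIs per spot, and the part of depth in these levels was not tested.

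**Figure D5:**
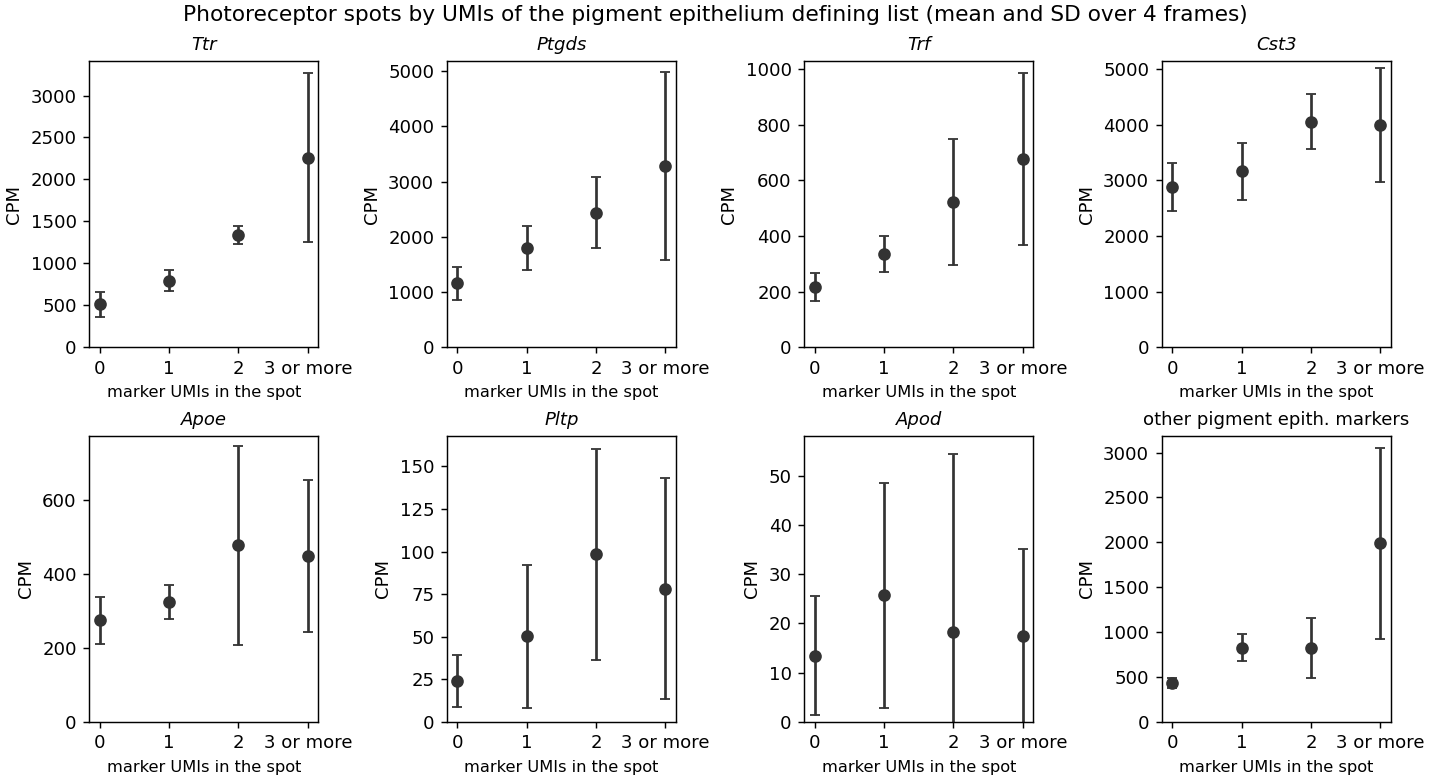
CPM (mean and SD over 4 frames) in photoreceptor spots with 0, 1, 2 and 3 or more UMIs of the pigment epithelium defining list. Each panel has its own axis, and bars are cut at 0; the mean of Ttr is 510 CPM with 0 and 2257 CPM with 3 or more, and that of the other pigment epithelium markers 434 and 1991 CPM.

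On the outer side only 2 frames held 10 or more fibrous spots both with and without such UMIs, so no test was run. Ttr stood at 4678 and 2619 CPM in fibrous spots with them in frames 1 and 3, against 0 and 1111 CPM in those without. Apoe stood at 2366 and 1800 CPM with and at 590 and 2000 CPM without, in opposite order in the 2 frames. In frame 4 fibrous spots without such UMIs held 571 CPM of Ttr. Neural spots without them held 333, 305 and 278 CPM of Ttr in frames 1, 3 and 4.

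Shares of spots with a UMI were compared after thinning to 200 UMIs, which left out shallower spots: 23 of 231 pigment epithelium, 56 of 215 melanosome, 35 of 95 optic nerve, 120 of 1343 photoreceptor and 22 of 721 ganglion spots. Ttr was then found in 67.8% of pigment epithelium spots (79.7% unthinned), against 14.6% of photoreceptor (34.5%), 2.43% of ganglion (9.02%) and 1.67% of optic nerve spots (1.05%). Ptgds was found in 85.1% of pigment epithelium and 82.4% of melanosome spots (92.6% and 84.2% unthinned), against 6.72% of ganglion spots (25.4%). Apod was found in 18.3% of optic nerve spots (24.2%), against 0.481% of pigment epithelium spots (1.30%). The thinned shares of Ttr in optic nerve and of Apod in pigment epithelium spots are 1 spot each.

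Over 34 profiles of frame and spot group, the genes most like each one were ranked by Pearson's r of log2(CPM + 10) among 4803 genes, as a description, since profiles of a frame share a library. Ttr was most like Cltrn (0.89), Arl6ip1 (0.82) and Pon1 (0.80). Ptgds was most like Sgk1 (0.82), Cst3 (0.76) and Bri3 (0.73), and Cst3 was most like Sgk1 (0.76), Ptgds (0.76) and Slc13a3 (0.72). Trf was most like Slc13a3 (0.69), Ptgds (0.69) and Fgfr2 (0.68). Apoe was most like Igfbp7 (0.81), Cd81 (0.78) and Cd63 (0.76), Pltp was most like Ezr (0.82), Fam107b (0.70) and Topbp1 (0.67), and Apod was most like S100a6 (0.76), Fth1 (0.73) and Neat1 (0.70). Among the 7 themselves, Ttr and Apod had the lowest r, at -0.35.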

How the data were processed

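The authors deposited counts of UMIs per gene and spot. Per the file headers the software was Space Ranger 2.0.0, and the submitters' processing notes name mm10. All spots of the 4 matrices entered, with 674029 to 1066633 UMIs per frame. Intervals cover counting error only.

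A spot was placed by 10 lists holding 92 defining genes: list UMIs were scaled to their 99th percentile, and the highest list was taken where it held a share of at least 0.25 and 3 UMIs. No doublet caller was run. Frames with at least 10 spots of a group entered. UMIs without defining genes were summed per frame and group, filtered with filterByExpr (minimum count 10), scaled by TMM and tested with edgeR 4.0.16 (robust quasi-likelihood, R 4.3.3, Benjamini-Hochberg over all genes tested). The frame is the block because groups of a frame share its sections and library.

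The design was 1 fit over all spot groups for the 6 comparisons between coat, nerve and neural spots. A 2-group fit per comparison was added after those results had been seen; for a time it was used as the chief fit, and it makes more calls for these genes, so the designed fit was kept and the other is given as an alternative. It called 274, 345, 332, 36, 65 and 91 genes where the designed fit called 83, 88, 156, 37, 109 and 131, in the order pigment epithelium, fibrous and optic nerve minus neural, pigment epithelium and optic nerve minus fibrous, pigment epithelium minus optic nerve. Scaling by library sizes alone was also added later.

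The 7 genes and all lists were chosen with earlier results of these data known. Genes named beyond the 7 are up to 3 per pathway list with the lowest p among those that passed, and the 3 most like each of the 7. One gene that this rule names is not reported here. The script was tested on simulated data. DESeq2 1.42.0 was an alternative. The files give no barcode-to-position table used here, so distance was not measured.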

Additional observations from a re-analysis of the deposited data

Results flagged for a closer look

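Of 49 sets of 4 frames examined, 5 had a frame standing apart by Dixon's criterion at 95%, where chance gives about 1 in 20. In melanosome spots frame 4, with 10 spots, stood apart 3 times: Ttr was highest there at 4793 CPM, against a median of 1440 CPM in the other frames, Ptgds was highest at 22469 CPM, against 11519 CPM, and Apoe was lowest at 1797 CPM, against 2282 CPM. Ptgds in fibrous spots was highest in frame 4 too, at 10559 CPM, against 4981 CPM. Apod in pigment epithelium spots was at 41.8 CPM in frame 2, which held all 3 of its UMIs, and at 0 in the others.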

How the results depend on the processing

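Leaving aside single frames, numbers of genes passing moved by over 1.5 times as follows, in the order of the comparisons above. Without a filter on low counts 327, 426, 767 and 23 genes passed for pigment epithelium, fibrous and optic nerve minus neural and pigment epithelium minus fibrous. The 2-group fit gave 274, 345, 332 and, for optic nerve minus fibrous, 65. With at least 5 list UMIs per spot 167, 217, 398, 57, 203 and 283 passed. With Leiden groups 320 passed for optic nerve minus neural, 23 for pigment epithelium minus fibrous, 271 for optic nerve minus fibrous, 269 for pigment epithelium minus optic nerve, 1415 for photoreceptor minus inner retina and 60 for neural spots with against without marker UMIs. At a share of at least 0.5, 156 passed for fibrous minus neural and 1490 for photoreceptor minus inner retina. With groups from a random 50% of UMIs 1243 passed for photoreceptor minus inner retina and 285 for neural spots with against without, where DESeq2 gave 328. Leaving out 1 frame gave 48 to 158, 46 to 175, 112 to 252, 16 to 54, 56 to 148, 86 to 215, 1865 to 2216 and 246 to 644; the first 6 were highest without frame 4, which held the fewest UMIs, with 1143 genes tested. The cause of these shifts was not tested, apart from the number of genes tested, which the filters set. Without the replicate block the counts were 85, 90, 160, 40, 111, 130, 2210 and 523, and 1 call of these genes was lost, Cst3 in fibrous minus neural (0.78, adjusted p = 0.0592). Cst3 in fibrous minus neural reversed to -0.10 (adjusted p = 0.911) with no filter on low counts. Without that filter the calls of Cst3 and Apoe in pigment epithelium minus neural (0.156 and 0.101), of Ttr, Trf and Apoe in fibrous minus neural (0.0668, 0.316 and 0.0594) of Ptgds in optic nerve minus neural (0.0969) and in pigment epithelium minus fibrous (0.0821), and of Apoe in pigment epithelium minus optic nerve (adjusted p of 1) and in neural spots with against without (0.149) were also lost. Apoe in the last was lost too at a share of at least 0.5 (0.065) and with groups from a random 50% of UMIs (0.46, adjusted p = 0.357). Cst3 in fibrous minus neural kept its call under 7 of 16 alternatives. In pigment epithelium minus fibrous Trf was lost with DESeq2 (0.0612) and with groups from a random 50% of UMIs (0.1), and Ptgds with library sizes alone (0.0511). Ttr, Ptgds and Trf in pigment epithelium minus neural passed under all 16 alternatives, with log2 folds of 3.13 to 4.01, 3.09 to 4.11 and 2.88 to 3.76. Ptgds in pigment epithelium minus optic nerve, which did not pass, changed side under 8 of 16, and Apoe, which passed, under 8 of 16. Depth limits Pltp and Apod, with 169 and 124 UMIs in all.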
